A study of Mus musculus with 4 samples.

Results

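The genes described here are 36 actin cytoskeleton and contractile genes: 4 actins, transgelins and calponins, myosin chains and their kinase, tropomyosins and caldesmon, filament crosslinkers, focal adhesion proteins, LIM domain proteins and proteins that bind actin monomers or cut filaments. They were chosen by name, and each was read from the row that carries its symbol in 2 deposited expression tables, which list 22480 gene symbols between them. Where a symbol had several rows, the one with the highest mean level was taken. All 36 had a row in the mammosphere table, Myl12a under its earlier symbol, 2900073G15Rik, and the others under their own. Of the 36, 31 had a row in the knockdown table.

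Poly(A) RNA was sequenced from mouse cells labelled MMTV-Myc, a name that refers to Myc under the mouse mammary tumour virus promoter. There were 4 groups of 1 library each. Whether the bulk cells were of 1 cell type was not tested, and their markers of several cell types are given below. Mammosphere cells (day 20) were grown unattached, on low attachment plates, with EGF, bFGF and a supplement, whereas bulk cells (day 0) were grown with serum and insulin. Cbx8 knockdown cells carried 1 lentiviral hairpin, sh68, against Cbx8, a Polycomb protein whose chromodomain reads methylated histone H3, and control shRNA cells carried a control hairpin called shLuc in the genotype label and shScr in the sample description. The hairpins were in pLKO.1 vectors selected with puromycin, and the labels do not say whether the shRNA cultures grew attached. The genotype of the mammosphere and bulk cells is given as wild type, and that of the control shRNA cells as wild type (shLuc). No group had a replicate, so each difference below is between 2 libraries with no error between cultures and no replicate test behind it. Fold changes are given on the log2 scale with 1 FPKM (fragments relative to the length of the transcript and the size of the library) added to each value, and a gene is called lower or higher at 2-fold or more among rows with at least 1 FPKM in either library.

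Actin filaments are built from actin monomers, bundled and crosslinked, and pulled on by myosin II. Non-muscle cells use beta- and gamma-actin with non-muscle myosin, while smooth muscle and mammary myoepithelial cells add their own contractile isoforms (Acta2, Cnn1, Myh11, Myl9, Tagln). In cells attached to a surface, contractile bundles called stress fibres end at focal adhesions, where talin, vinculin, paxillin and zyxin link actin to integrins. Many of these genes are targets of the transcription factor SRF and its actin-regulated MRTF coactivators, which bind a DNA element known as the CArG box.

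The promoters of members that hold a CArG box are shown first, since the box is the known SRF site and the fold changes below can be read beside it. RefSeq promoter windows (build GRCm38.p6, 250 bases before to 50 after each start site) matched 31 of 36 members. Actb, Actg2, Tagln, Myh11 and Pxn had none in the table. The box was searched as CC, 6 bases of A or T, and GG, so variant boxes and boxes outside the windows would be missed. On either strand, 6 of these 31 members (19.4%) held such a CArG box, against 488 of 27025 genes with a window (1.81%). Each line gives 15 bases on either side of the box in the direction of transcription, with the box in capitals.
Actg1 (chr11:120348561-120348600, minus strand): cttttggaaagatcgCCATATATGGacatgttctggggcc
Cnn2 (chr10:79988529-79988568, plus strand): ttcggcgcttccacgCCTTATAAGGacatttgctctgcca
Myl9 (chr2:156775288-156775327, plus strand): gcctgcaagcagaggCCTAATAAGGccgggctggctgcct
Myl6 (chr10:128493035-128493074, minus strand): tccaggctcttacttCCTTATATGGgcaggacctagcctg
Vcl (chr14:20929156-20929195, plus strand): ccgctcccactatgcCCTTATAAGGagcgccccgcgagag
Fhl2 (chr1:43163968-43164007, minus strand): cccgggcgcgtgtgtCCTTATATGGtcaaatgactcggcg
Fhl2 (chr1:43196833-43196872, minus strand): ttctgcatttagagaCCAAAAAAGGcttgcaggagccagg

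The boxes lay upstream of the start site, from position -227 to -218 in Vcl to position -31 to -22 in the first Fhl2 window. Fhl2 had a box in each of its 2 windows. Of the 6 genes, Cnn2 and Myl9 had the lowest fold changes in mammosphere over bulk. Their whole windows follow, again with the CArG box in capitals.
Cnn2 (chr10:79988350-79988649, plus strand): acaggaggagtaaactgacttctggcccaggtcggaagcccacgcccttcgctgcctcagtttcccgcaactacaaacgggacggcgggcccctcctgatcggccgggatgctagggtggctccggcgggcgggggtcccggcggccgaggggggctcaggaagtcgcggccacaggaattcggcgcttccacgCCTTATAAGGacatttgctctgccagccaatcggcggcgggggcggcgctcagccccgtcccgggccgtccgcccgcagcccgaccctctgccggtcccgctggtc
Myl9 (chr2:156775214-156775513, plus strand): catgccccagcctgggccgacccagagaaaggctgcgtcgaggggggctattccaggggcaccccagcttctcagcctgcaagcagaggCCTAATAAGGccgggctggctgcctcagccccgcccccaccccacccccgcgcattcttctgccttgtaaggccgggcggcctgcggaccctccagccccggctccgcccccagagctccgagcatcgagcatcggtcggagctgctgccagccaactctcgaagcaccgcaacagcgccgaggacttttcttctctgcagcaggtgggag

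The other motifs searched on both strands, which do not overlap the CArG boxes shown, were GGAATG, bound by TEAD factors, and TGANTCA, bound by AP-1. GGAATG was in windows of 11 of 31 members (35.5%) and 16.6% of all genes with a window. TGANTCA was in 5 of 31 members (16.1%) and 8.97% of all genes. A match describes the letters in these windows and does not show that a factor binds there.

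Cbx8, on chromosome 11 from 118899749 to 118902227 (mm9, as are all positions below), had 1.23 FPKM in the knockdown library and 4.74 FPKM in the control library, 3.84-fold lower as a plain ratio (authors' deposited q = 0.385). Cbx8 was also lower in the other comparison, at 1.48 FPKM in mammospheres and 3.46 FPKM in bulk cells, a row the authors did not test. Markers of mammary epithelium were uneven. Krt18, a keratin of simple epithelia, was at 58.2 FPKM in mammospheres and 570.4 FPKM in bulk cells, and at 255.7 FPKM in the knockdown and 261.4 FPKM in the control library. The epithelial adhesion genes Epcam and Cdh1 were at 1.06 FPKM or less in each of the 4 libraries. Depth is unknown, because the files hold no read counts.

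In mammospheres most of the actin and contractile genes had lower transcript levels than in bulk cells. Of the 32 members at 1 FPKM or more in either library, 19 were at least 2-fold lower and none was 2-fold higher; with no minimum the count over all 36 was also 19. Across all rows counted by the same rule, 17.3% were 2-fold lower and 3.54% were 2-fold higher. In all, 30 members were below 0 and 2 above 0, beside 65.3% and 34.7% of all rows, and 25 were 1.5-fold lower and none 1.5-fold higher, beside 30.7% and 9.86%. At 4-fold, 6 members were lower and none was higher, beside 5.54% and 0.526% of all rows. The members' median log2 fold change was -1.14, beside -0.24 for all 11603 rows. Genes expressed in both libraries had a median of -0.19. With fold changes centred on that median, 14 members were 2-fold lower and none 2-fold higher, against 13.3% and 5.63% of all rows, and the members' median was -0.95. In bulk RNA, fewer cells of a type and less RNA per cell cannot be told apart.

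Well expressed members gave a similar picture. Among members with a mean of 20 FPKM or more, 14 of 27 were 2-fold lower and none 2-fold higher, beside 14.6% and 2.56% of all rows at that level. By the authors' deposited table, 7 of the 29 counted members that they tested were lower at q under 0.05 and none was higher. Beside this, 10.2% and 1.73% of the 4045 rows the authors tested were lower and higher. The 7 members were Acta2, Cnn2, Tpm1, Fhl2, Csrp1, Pdlim7 and Tmsb4x. Tagln, Cnn1 and Myl9 reached 1 FPKM in bulk cells only and were not tested by the authors. Actg2, Mylk, Myh10 and Myh11 were under 1 FPKM in both libraries.

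**Figure D1:**
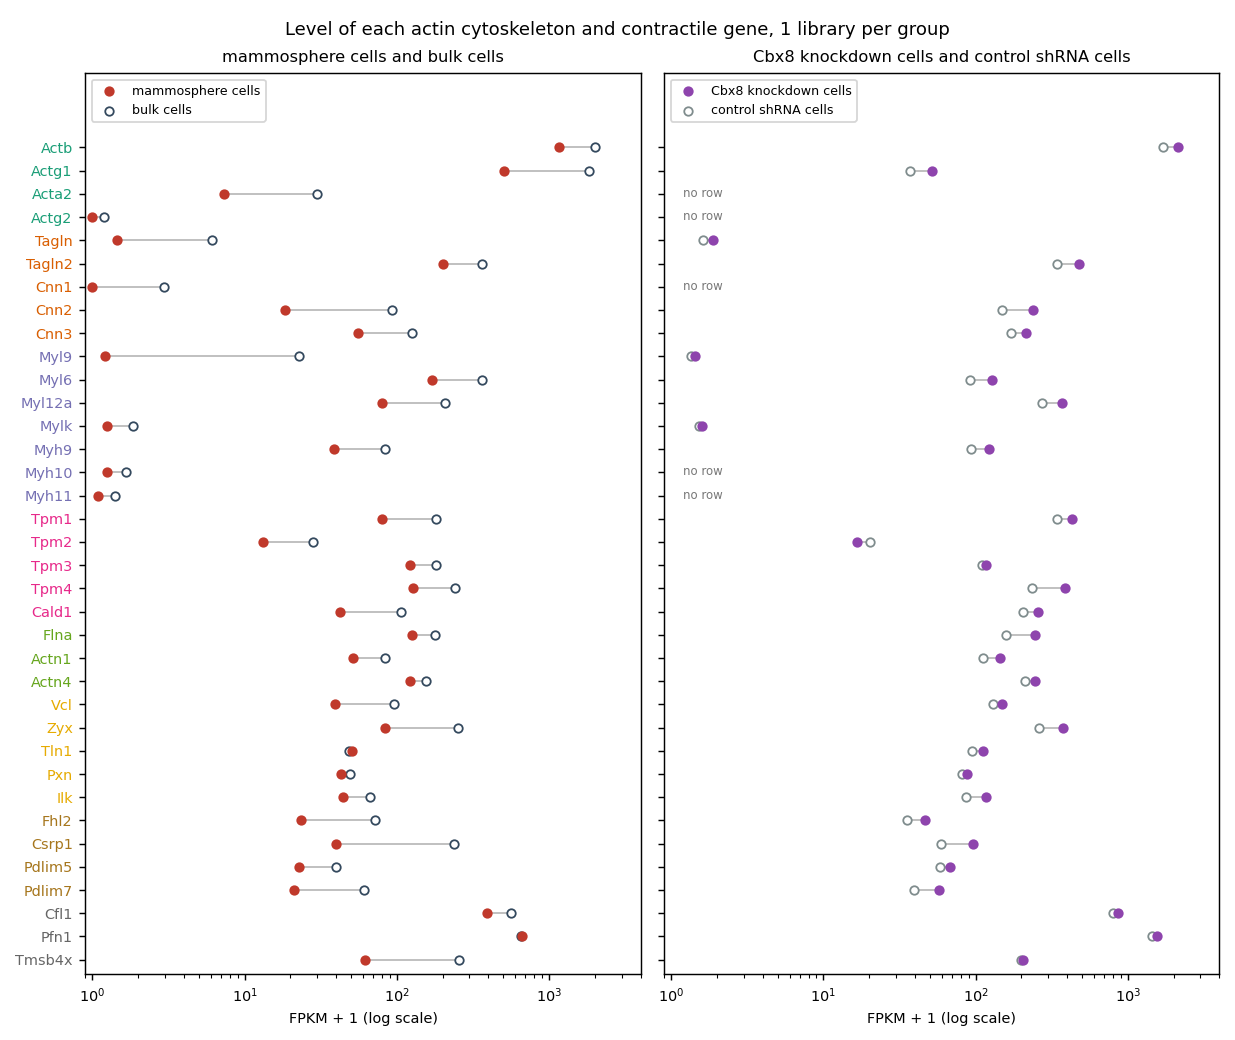
Level of each of the 36 genes as FPKM + 1 on a log axis, with filled points for mammosphere cells (left panel) or Cbx8 knockdown cells (right panel) and open points for bulk or control shRNA cells, 1 library each; gene names are coloured by role. Mammosphere points lie left of the bulk points for every gene except Tln1 and Pfn1, and knockdown points lie right of the control points for every gene with a row except Tpm2.

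Among the actins, the isoforms did not differ to the same extent. Actb, encoding beta-actin (chromosome 5, 143664794 to 143668403), was at 1167 FPKM in mammospheres and 2003 FPKM in bulk cells, a log2 fold change of -0.78. Actg1, encoding the other cytoplasmic isoform, gamma-actin, was at 503 FPKM in mammospheres and 1831 FPKM in bulk cells (log2 -1.86, authors' deposited q = 0.236). The ratio of Actg1 to Actb was therefore 0.431 in mammospheres and 0.914 in bulk cells. Acta2, smooth muscle alpha-actin (chromosome 19, 34315580 to 34329826), was at 6.33 FPKM in mammospheres and 29.04 FPKM in bulk cells, a log2 fold change of -2.03 (authors' deposited q = 0.00538). It made up 0.378% of summed actin FPKM in mammospheres and 0.752% in bulk cells. Actg2, enteric smooth muscle gamma-actin, was listed at 0 in mammospheres and at 0.194 FPKM in bulk cells.

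The Actg1 level carries a larger limit than those of the other actins. In GENCODE M21 transcripts, 51.1% of the 100-base stretches of Actg1 (the read length) also occurred in transcripts of other genes, all 6 of them pseudogenes, against 1.10% for Actb and 0% for Acta2. The labels do not say how such reads were assigned. Without Actg1, 18 of 31 members were 2-fold lower and the median was -1.10.

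Transgelins and calponins are actin-binding proteins of the calponin family, and 4 of the 5 were 2-fold lower in mammospheres. Of these 4, Cnn3 lost its 2-fold call after centring, and Cnn1 and Tagln lost theirs with 5 FPKM added. Cnn2, the broadly expressed calponin 2 (chromosome 10, 79451344 to 79458145), was at 17.3 FPKM in mammospheres and 91.3 FPKM in bulk cells, 5.28-fold lower as a plain ratio (authors' deposited q = 0.000226). Cnn3, acidic calponin, was at 54.98 FPKM in mammospheres and 124.7 FPKM in bulk cells, and smooth muscle Cnn1 was listed at 0 in mammospheres and at 1.94 FPKM in bulk cells. Cnn2 was thus 23.9% of summed calponin FPKM in mammospheres and 41.9% in bulk cells. Tagln2, the non-muscle transgelin, was at 199 FPKM in mammospheres and 364 FPKM in bulk cells (log2 -0.87). Tagln (SM22), a smooth muscle marker, was at 0.447 FPKM in mammospheres and 5.12 FPKM in bulk cells. Its row covers chromosome 9, 45671773 to 45744141, a locus listed also for Pcsk7 and Rnf214, and 33.2% of its 100-base stretches occurred in transcripts of other genes, so its level is uncertain.

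The myosin members divide into those at substantial levels and those near 0. Myl9, the smooth muscle type regulatory light chain (chromosome 2, 156601199 to 156607393), had the largest difference of any member with 1 FPKM added, at 0.207 FPKM in mammospheres and 21.8 FPKM in bulk cells (log2 -4.24). With 5 FPKM added its log2 fold change was -2.37, and Csrp1 was lower at -2.47. The non-muscle regulatory light chain Myl12a was at 79.4 FPKM in mammospheres and 207 FPKM in bulk cells (log2 -1.37). Of the Myl12a stretches, 24.5% also occurred in its neighbour Myl12b, another regulatory light chain, which was at 118 FPKM in mammospheres and 197 FPKM in bulk cells. Myl9 was 0.104% of the summed FPKM of these 3 regulatory light chains in mammospheres and 5.13% in bulk cells. Myl6, the essential light chain of non-muscle and smooth muscle myosin, was at 170 FPKM in mammospheres and 362 FPKM in bulk cells. Myh9, the heavy chain of non-muscle myosin IIA, was at 37.9 FPKM in mammospheres and 82.6 FPKM in bulk cells (log2 -1.10). Myh9 was at least 98.7% of the summed FPKM of the 3 heavy chains in both libraries. Myh10 and Myh11, of non-muscle myosin IIB and smooth muscle myosin, were at 0.671 FPKM or less, and Mylk, the myosin light chain kinase, at 0.841 FPKM or less.

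Tropomyosins lie along the filament and set which proteins can bind it, and 2 of the 4 were 2-fold lower. Tpm1 was at 79.5 FPKM in mammospheres and 180 FPKM in bulk cells (log2 -1.17, authors' deposited q = 0.000395), and Tpm2 at 12.1 FPKM in mammospheres and 27.1 FPKM in bulk cells (log2 -1.10). Tpm3 was at 122 FPKM in mammospheres and 180 FPKM in bulk cells, and Tpm4 at 127 FPKM in mammospheres and 241 FPKM in bulk cells. Both Tpm1 and Tpm2 lost their 2-fold call after centring. Of the Tpm3 stretches 45.7% occurred also in Tpm3-rs7, a near copy. Caldesmon, Cald1, which binds tropomyosin, actin and myosin, was at 41.4 FPKM in mammospheres and 104.9 FPKM in bulk cells (log2 -1.32).

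**Figure D2:**
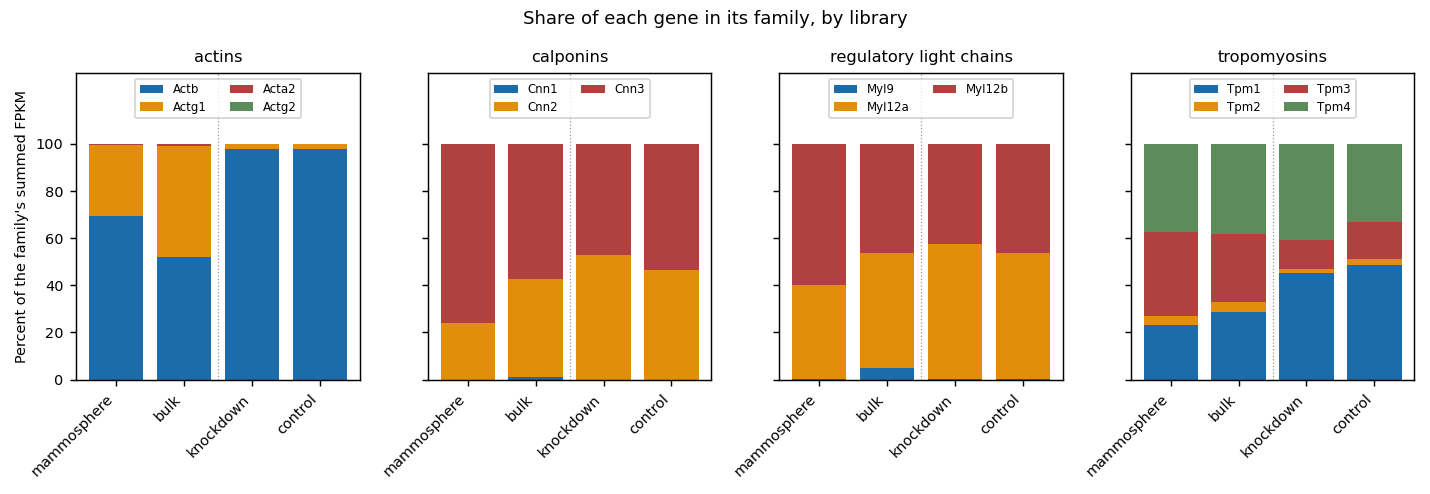
Share of each gene in the summed FPKM of its family (percent, bars stacked to 100), for actins, calponins, regulatory light chains and tropomyosins in the 4 libraries, with a dotted line between the 2 tables. Within the mammosphere table, Actg1, Cnn2 and Myl9 take a smaller share in mammospheres (30.0%, 23.9% and 0.104%) than in bulk cells (47.4%, 41.9% and 5.13%).

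Crosslinkers tie filaments into bundles and networks, and none of the 3 reached 2-fold. Filamin A, Flna, was at 124 FPKM in mammospheres and 178 FPKM in bulk cells (log2 -0.52), the alpha-actinin Actn1 at 50.2 FPKM in mammospheres and 82.3 FPKM in bulk cells (log2 -0.70), and Actn4 at 121 FPKM in mammospheres and 155 FPKM in bulk cells (log2 -0.35). Filamin C, Flnc, which is not a member, was at 36.98 FPKM in mammospheres and 256.5 FPKM in bulk cells (log2 -2.76).

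Focal adhesion members were divided. Zyx, encoding zyxin, which is recruited to tensed stress fibres and adhesions, was at 82.9 FPKM in mammospheres and 251 FPKM in bulk cells (log2 -1.59, authors' deposited q = 0.0787). Vcl, encoding vinculin, which couples talin to actin, was at 38.2 FPKM in mammospheres and 94.2 FPKM in bulk cells (log2 -1.28, q = 0.153 there). By contrast Tln1, encoding talin, the protein that binds integrin tails, was at 49.6 FPKM in mammospheres and 47.7 FPKM in bulk cells (log2 0.05). The scaffold Pxn, paxillin, was at 41.9 FPKM in mammospheres and 48.05 FPKM in bulk cells, and the adaptor Ilk, integrin-linked kinase, at 43.5 FPKM in mammospheres and 66.1 FPKM in bulk cells. The ratio of Tln1 to Vcl was 1.297 in mammospheres and 0.506 in bulk cells. Tln1 (chromosome 4, 43544384 to 43575455) lies beside Tpm2 (chromosome 4, 43527583 to 43536260), which was 2.24-fold lower as a plain ratio. Stretches shared with neighbouring genes made up 38.6% of the longest Vcl transcript (Ap3m1) and 33.8% of that of Ilk (mostly Taf10), and the labels do not say whether reads were counted by strand.

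The LIM proteins had the lowest median after the actins, -1.57, with 3 of 4 members 2-fold lower. Csrp1, a cysteine-rich LIM protein that binds alpha-actinin and zyxin (chromosome 1, 137625773 to 137648806), was at 39.0 FPKM in mammospheres and 238 FPKM in bulk cells. That is 6.11-fold lower, and its authors' deposited q of 6.61e-05 was the lowest of any member. Fhl2, a LIM-only protein of focal adhesions that also acts in the nucleus, was at 22.4 FPKM in mammospheres and 71.4 FPKM in bulk cells. The PDZ and LIM protein Pdlim7 was at 20.2 FPKM in mammospheres and 59.5 FPKM in bulk cells, and its relative Pdlim5 was at 21.6 FPKM in mammospheres and 38.9 FPKM in bulk cells (log2 -0.82).

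Among the proteins that act on monomers and filament ends, Tmsb4x, encoding the monomer-sequestering thymosin beta-4, stood apart at 60.8 FPKM in mammospheres and 253 FPKM in bulk cells (log2 -2.04, authors' deposited q = 0.00255). Pfn1, encoding profilin, which feeds monomers to growing ends, was at 660 FPKM in mammospheres and 649 FPKM in bulk cells (log2 0.02). Cfl1, encoding cofilin, which severs filaments, was at 393 FPKM in mammospheres and 559 FPKM in bulk cells (log2 -0.51). The ratio of Pfn1 to Tmsb4x was 10.9 in mammospheres and 2.56 in bulk cells. Tmsb10, a second beta-thymosin that is not a member, was also low in mammospheres, at 46.2 FPKM against 171 FPKM in bulk cells.

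**Figure D3:**
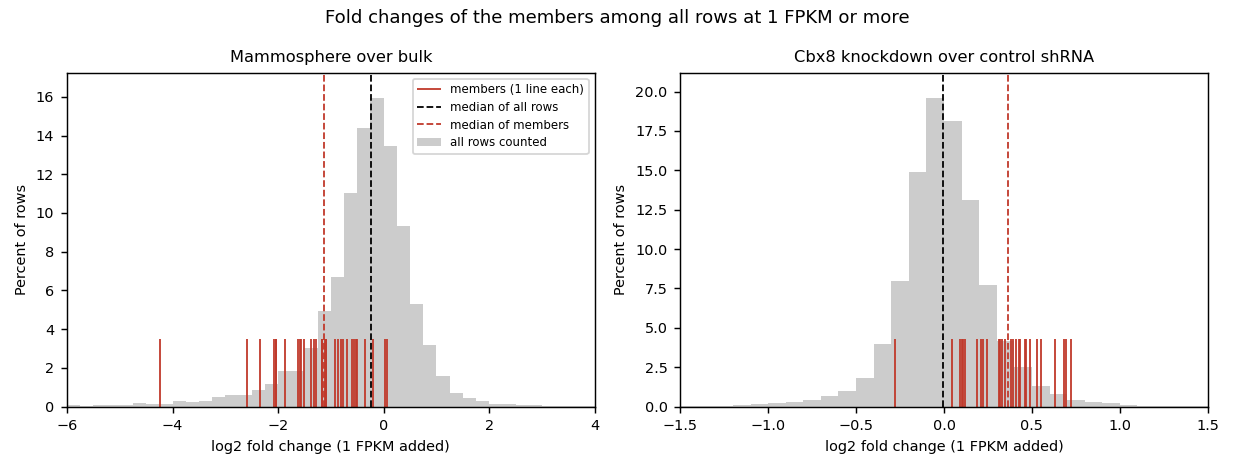
Percent of all rows counted (grey bars) by log2 fold change with 1 FPKM added, for mammosphere over bulk (left) and Cbx8 knockdown over control shRNA (right); each red line is 1 member and dashed lines are the medians. The members' median is -1.14 beside -0.24 for all rows on the left and 0.36 beside -0.01 on the right.

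All 6 members with a CArG box were 2-fold lower in mammospheres, as were 12 of the 23 other counted members with a window. Of the 6, Myl6 lost its 2-fold call after centring, and Myl9 reached 1 FPKM in bulk cells only. Cnn3, Myh9, Tpm1 and Tpm2, among the 12, also lost their call after centring. Among all counted genes with a window, 25.4% of 118 with a CArG box and 16.0% of 7913 without one were 2-fold lower. The shares 2-fold higher were 6.78% and 3.35%, and those below 0 were 66.9% and 64.7%. Their medians were -0.44 and -0.22, and the 118 include the 6 members. For TGANTCA, 29.5% of 543 genes with it and 15.1% of 7488 without it were 2-fold lower, and 6.26% and 3.19% were 2-fold higher. Below 0 were 67.0% and 64.6%. For GGAATG, 18.7% of 1150 and 15.7% of 6881 were 2-fold lower, and 3.83% and 3.33% were 2-fold higher. Among the members, 3 of 4 counted with TGANTCA and 5 of 9 with GGAATG were 2-fold lower. Srf itself was at 16.6 FPKM in mammospheres and 57.5 FPKM in bulk cells (log2 -1.73, authors' deposited q = 0.0115). The coactivator Mkl1 (MRTF-A) was at 11.55 FPKM in mammospheres and 16.2 FPKM in bulk cells, and Mkl2 (MRTF-B) at 4.02 FPKM in mammospheres and 3.01 FPKM in bulk cells.

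The other actin gene lists had medians nearer to that of all rows than the members' median was. Their counts stand beside 17.3% of all rows 2-fold lower and 3.54% 2-fold higher. Of 14 other smooth muscle and stress fibre genes at 1 FPKM or more, 6 were 2-fold lower and none higher (median -0.64), among them Flnc and the actin-bundling Lima1 (17.6 FPKM in mammospheres, 70.1 FPKM in bulk cells). Of 24 genes of the branching Arp2/3 complex, its WAVE activators and the formins, 1 was 2-fold lower, the formin Fmnl3 at 19.5 FPKM in mammospheres and 42.65 FPKM in bulk cells (median -0.43). Of 18 other monomer-binding, capping and severing genes, 4 were lower (median -0.62). Of these 4, Scin and Coro1a reached 1 FPKM in bulk cells only, and Coro1a is also among the leukocyte markers given below. In the list of 26 other focal adhesion genes the median was -0.42, 6 genes being lower and 1 higher. The adhesion scaffold Nedd9 was at 0.955 FPKM in mammospheres and 48.4 FPKM in bulk cells.

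Of 20 fascin, plastin and cortical linker genes, 5 were lower (median -0.53), beside 17.3% of all rows. These 5 include Lcp1, also a leukocyte marker, which reached 1 FPKM in bulk cells only. Of 11 tubulins, the subunits of the other filament system, 4 were lower and none higher, with a median of -0.15, or 0.03 after centring. Tubb2a was at 9.07 FPKM in mammospheres and 60.5 FPKM in bulk cells, whereas summed tubulin FPKM was 2205 in mammospheres and 2136 in bulk cells.

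**Figure D4:**
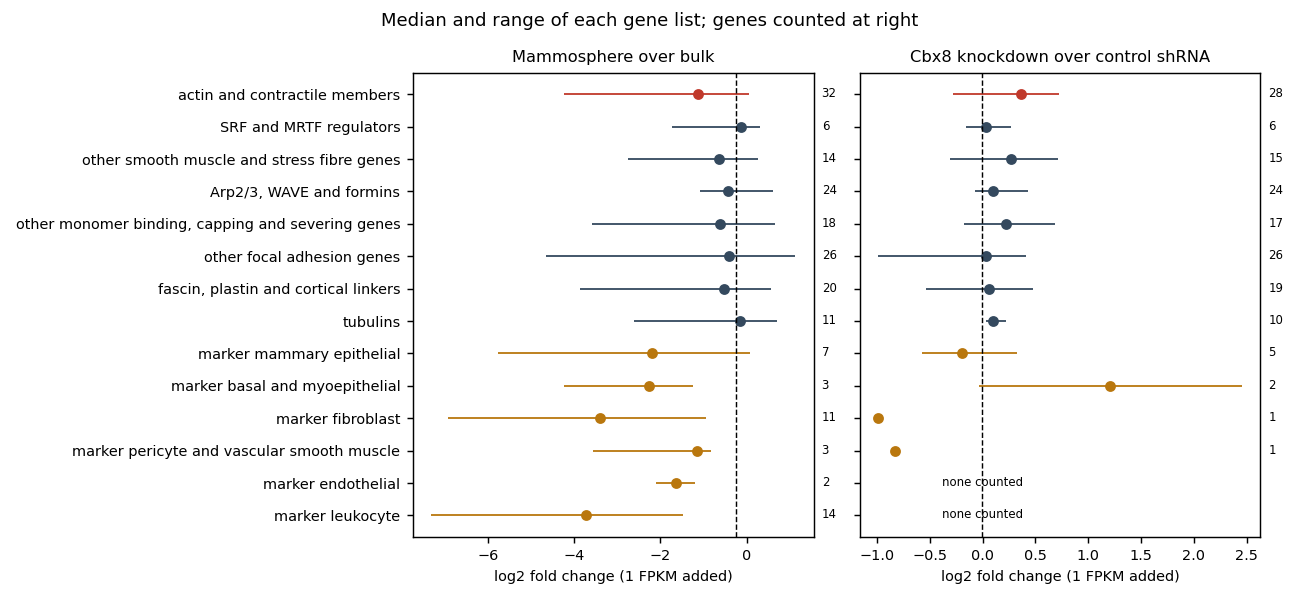
Median (point) and range (line) of log2 fold changes with 1 FPKM added for the members, other actin lists, tubulins and marker lists, with the number of genes counted at the right of each panel and the median of all rows dashed. In mammosphere over bulk the members' median is -1.14 and the medians of the other actin lists lie between -0.64 and -0.12; in knockdown over control the members' median is 0.36.

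Marker genes of several cell types were also lower in mammospheres. Epithelial markers summed to 75.05 FPKM in mammospheres and 943 FPKM in bulk cells (5 of 7 lower, beside 17.3% of all rows). No marker of the other cell types reached 1 FPKM in mammospheres, the highest being Egfr at 0.872 FPKM. Those counted below passed the 1 FPKM minimum through bulk cells alone, so their direction was fixed by that minimum. Summed leukocyte marker FPKM was 1.37 in mammospheres and 432 in bulk cells, with 14 of 14 counted markers 2-fold lower, and Tyrobp, Fcer1g, Cd3e and Cd53 among those at 0 in mammospheres. Summed fibroblast marker FPKM was 1.07 in mammospheres and 359 in bulk cells (10 of 11 lower), with Lum, Thy1 and Postn at 0 in mammospheres. Basal and myoepithelial markers summed to 1.05 FPKM in mammospheres and 29.8 FPKM in bulk cells (3 of 3 lower, Trp63 at 0 in mammospheres). Pericyte and vascular smooth muscle markers summed to 0.599 and endothelial markers to 0.378 FPKM in mammospheres, against 16.5 and 7.69 FPKM in bulk cells. Pericyte markers were lower in 2 of 3 and endothelial markers in 2 of 2 counted genes, with Rgs5, Lmod1, Higd1b, Tek, Cldn5 and Emcn at 0 in mammospheres. Fibroblasts, pericytes and myoepithelial cells express Acta2, Tagln, Cnn1 and Myl9, and leukocytes express Tmsb4x and Coro1a. The part of these markers in the members' differences was not tested. The highest single markers in bulk cells were Cd74 (164 FPKM) for leukocytes, Col3a1 (128 FPKM) for fibroblasts, Krt14 (18.8 FPKM) for basal cells, Mcam (13.2 FPKM) for pericytes and Pecam1 (3.54 FPKM) for endothelium. Most markers of the last 3 lists were under 1 FPKM in bulk cells. Only 3 of 8 basal, 3 of 10 pericyte and 2 of 8 endothelial markers reached it. Trp63 was at 0.227 FPKM and Lmod1 at 0.081 FPKM there.

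Cells with the Cbx8 hairpin had slightly higher levels of nearly every member than cells with the control hairpin. Of 28 members at 1 FPKM or more, 27 had a positive log2 fold change and 1, Tpm2, a negative one, beside 48.8% and 51.2% of all 10670 rows. None was 2-fold higher or lower, which 0.262% and 0.394% of all rows were. The members' median was 0.36, beside -0.01 for all rows. At a limit of 1.5-fold, 4 members were higher and none was lower, beside 2.06% and 2.12% of all rows. By the authors' deposited table, no member reached q under 0.05 in either direction, as 0.128% of all rows did upward and 0.0769% downward, and 4, all higher, had an unadjusted p under 0.05, beside 1.85% of all rows higher and 1.67% lower at that p. Among 4710 rows with a mean of 20 FPKM or more, 53.0% had a positive fold change.

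The 4 members past 1.5-fold came from 4 roles. Tpm4 was at 386 FPKM in the knockdown and 234 FPKM in the control library (1.65-fold as a plain ratio, authors' deposited q = 0.715). Csrp1 was at 94.6 FPKM in the knockdown and 58.2 FPKM in the control library (1.63-fold). Cnn2 was at 239 FPKM in the knockdown and 148 FPKM in the control library (1.61-fold). Flna was at 244 FPKM in the knockdown and 157 FPKM in the control library (1.55-fold).

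The other roles followed with smaller differences. Actb was at 2129 FPKM in the knockdown and 1705 FPKM in the control library, and Actg1 at 50.5 FPKM in the knockdown and 36.3 FPKM in the control library. Their ratio was 0.0237 in the knockdown and 0.0213 in the control library. Tagln2 was at 475 FPKM in the knockdown and 344 FPKM in the control library, and Cnn3 at 213 FPKM in the knockdown and 171 FPKM in the control library. Of the myosin chains, Myl6 was at 127.5 FPKM in the knockdown and 90.6 FPKM in the control library, Myl12a at 367 FPKM in the knockdown and 271 FPKM in the control library, and Myh9 at 122 FPKM in the knockdown and 91.8 FPKM in the control library. These 7 genes had log2 fold changes between 0.31 and 0.49.

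Tropomyosins differed in direction. Tpm1 was at 430 FPKM in the knockdown and 342 FPKM in the control library, and Tpm3 at 116 FPKM in the knockdown and 108 FPKM in the control library. Tpm2, in contrast, was at 15.7 FPKM in the knockdown and 19.3 FPKM in the control library (log2 -0.28). Tpm4 was 40.8% of summed tropomyosin FPKM in the knockdown and 33.3% in the control library. Cald1 was at 258 FPKM in the knockdown and 203 FPKM in the control library.

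At adhesions, Zyx was at 377 FPKM in the knockdown and 262 FPKM in the control library (log2 0.53), and Ilk at 115 FPKM in the knockdown and 85.6 FPKM in the control library. Vcl, Tln1 and Pxn had log2 fold changes of 0.19, 0.25 and 0.10. Of the LIM proteins, Pdlim7 was at 56.8 FPKM in the knockdown and 38.5 FPKM in the control library, Fhl2 at 45.7 FPKM in the knockdown and 34.5 FPKM in the control library, and Pdlim5 at 66.7 FPKM in the knockdown and 57.05 FPKM in the control library. The alpha-actinins Actn1 and Actn4 had log2 fold changes of 0.38 and 0.21. The monomer-binding group differed least: Pfn1 was at 1557 FPKM in the knockdown and 1445 FPKM in the control library, with Cfl1 and Tmsb4x at log2 fold changes of 0.12 and 0.05.

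Acta2, Actg2, Cnn1, Myh10 and Myh11 had no row in this table, which lists no row at 0 in either library. Another 3 members had levels under 1 FPKM. Tagln was at 0.888 FPKM in the knockdown and 0.621 FPKM in the control library, Myl9 at 0.432 FPKM in the knockdown and 0.354 FPKM in the control library, and Mylk at 0.594 FPKM in the knockdown and 0.515 FPKM in the control library. Of 8 basal and myoepithelial markers, 4 had a row and 2, Krt14 and Egfr, reached 1 FPKM in either library. The keratin Krt14 of basal cells stood at 10.5 FPKM in the knockdown and 1.09 FPKM in the control library. Egfr was at 6.05 FPKM in the knockdown and 6.22 FPKM in the control library (log2 -0.03). The part of Krt14-expressing cells in the members' differences was not tested. Only 3 of 12 fibroblast, 3 of 10 pericyte and vascular smooth muscle and 2 of 15 leukocyte markers had a row, and the sums cover these alone. Fibroblast markers summed to 1.72 FPKM in the knockdown and 3.76 FPKM in the control library. Pericyte and vascular smooth muscle markers summed to 2.39 and leukocyte markers to 0.588 FPKM in the knockdown, against 3.93 and 0.759 FPKM in the control library. No endothelial marker had a row.

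Among the other actin lists the differences in the knockdown were smaller in median than those of the members. For other smooth muscle and stress fibre genes the median was 0.27, 13 of 15 being positive, with Ablim1, an actin-binding LIM protein, at 10.02 FPKM in the knockdown and 5.70 FPKM in the control library. For other monomer-binding, capping and severing genes the median was 0.22 (14 of 17 positive), with the muscle-type cofilin Cfl2 at 83.8 FPKM in the knockdown and 51.7 FPKM in the control library. The medians of the Arp2/3, WAVE and formin list (0.10), the cortical linkers (0.06) and the other focal adhesion genes (0.03) were closer to that of all rows. In the same order, 21 of 24, 15 of 19 and 14 of 26 genes of these lists were positive. In the last of these Tns1, tensin 1, was at 5.45 FPKM in the knockdown and 11.8 FPKM in the control library. All 10 tubulins counted were positive (median 0.10), so a positive sign in nearly every gene was not particular to the members. Srf was at 30.9 FPKM in the knockdown and 26.1 FPKM in the control library, and Mkl1 at 29.8 FPKM in the knockdown and 24.5 FPKM in the control library. Of the 5 counted members with a CArG box, all 5 were positive, as were 20 of 21 without one. Over all genes with a window, 58.0% of 112 with a box and 48.3% of 7490 without one were positive, and the 112 include the 5 members.

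Set side by side, most members differed in opposite directions in the comparisons, which share no library. Of 28 members counted in both, 25 (89.3%) were below 0 in mammosphere over bulk and above 0 in knockdown over control, beside 35.2% of the 10376 rows counted in both. This share adds little to the separate counts, 30 of 32 below 0 and 27 of 28 above 0, which fix it at a high value. The 3 exceptions were Pfn1 and Tln1, which were above 0 in both, and Tpm2, which was below 0 in both. Cbx8 itself was below 0 in both, at -0.85 in mammosphere over bulk and -1.36 in knockdown over control. Csrp1 and Cnn2, the members counted in both with the lowest mammosphere values (-2.58 and -2.34), had knockdown values of 0.69 and 0.68. Tmsb4x did not follow them, at -2.04 in mammospheres and 0.05 in the knockdown. Across these 28 genes, which are not independent replicates and share their libraries within each table, Pearson's r between the fold changes was -0.41 and Spearman's coefficient -0.42. No coefficient over all rows is given beside them.

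**Figure D5:**
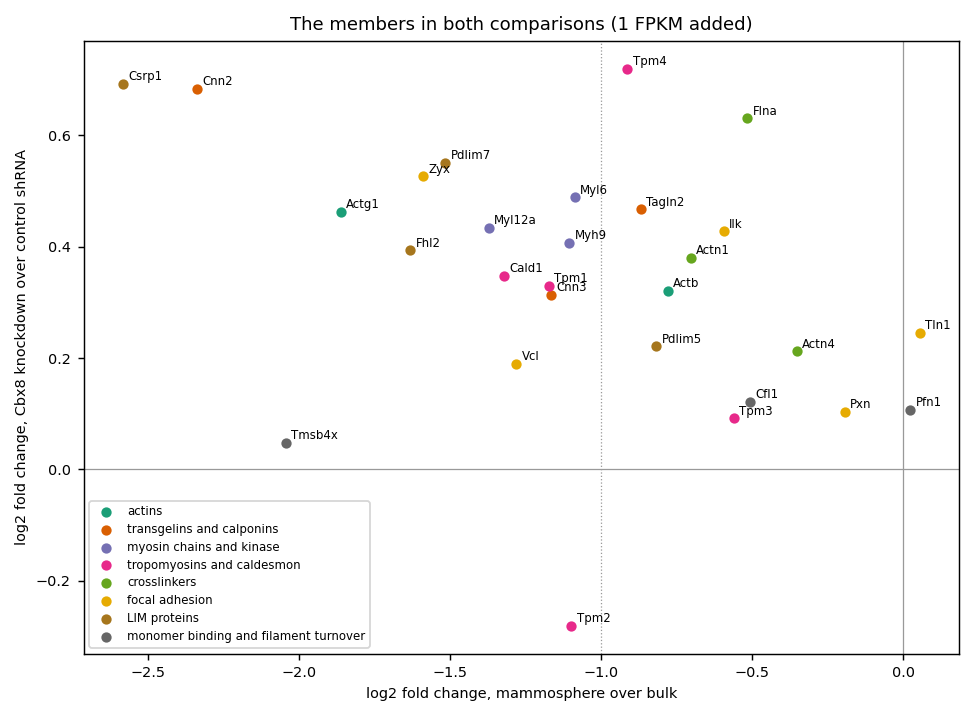
Log2 fold change with 1 FPKM added of the 28 members counted in both comparisons, mammosphere over bulk on the x axis and Cbx8 knockdown over control shRNA on the y axis, coloured by role, with the 2-fold limit dotted. In all, 25 members lie left of 0 and above 0, with Csrp1 and Cnn2 at the upper left, Pfn1 and Tln1 just right of 0 and Tpm2 below 0.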

How the data were processed

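Levels in 4 libraries came from 2 Cuffdiff outputs as deposited, mammosphere with bulk cells and knockdown with control shRNA cells. The authors gave FPKM per gene, and the deposited rows also hold a log2 ratio and test statistic (a score with no fixed range) and the authors' p-value and q-value. Build mm9 and the programs TopHat (1.4.0), Cufflinks (1.3.0), Cuffdiff (listed as 0.0.7) and FastQC (0.10.0) are named without settings, per the submitters' processing notes. In the table headers the bulk column is called D0MS and was matched by its day.

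The mammosphere table had 22440 rows (4045 tested by the authors, 18363 untested, 29 failed, 3 with too many fragments) and the knockdown table had 11708, of which 15 with a value of exactly 1 and no statistic were left out. Fold changes were log2((FPKM + 1)/(FPKM + 1)) within a table, which understates the change of low genes. Tested and untested rows were counted at 1 FPKM or more in either library. With 1 library per group no test was made. The counting step was tested on simulated data.

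Each member was named, by role, with Cbx8. From each other gene list, at most the 4 genes with the largest fold changes in a comparison were named. Myl12b, Epcam, Cdh1, the markers at 0, the highest markers and Coro1a and Lcp1 as leukocyte genes were chosen after their values were seen. The members and lists were chosen with earlier results of these data known. Sequences are from RefSeq (GRCm38.p6), and 100-base stretches of each member's longest coding transcript were looked up in GENCODE M21 transcripts on both strands. Alternatives were other pseudocounts, FPKM minimums, scalings, row choices and fold limits. Python 3.11.15, pandas 2.3.3 and NumPy 2.4.6 were used. A gene list and a marker are not reported here.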

Additional observations from a re-analysis of the deposited data

How the results depend on the processing

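The count of 19 members at least 2-fold lower in mammospheres became 6 at a limit of 4-fold (Acta2, Tagln, Cnn2, Myl9, Csrp1 and Tmsb4x), beside 5.54% of all rows, and 7 at the authors' q under 0.05, both stricter by construction. In the knockdown comparison the count of 0 members 2-fold higher became 4 at a limit of 1.5-fold. Pxn changed sign in mammosphere over bulk with upper quartiles set equal, to 0.0102. The other counts and medians stayed within 1.5 times of the values reported under pseudocounts of 0.1 and 5 FPKM, minimums of 0 and 5 FPKM, centring, equal upper quartiles, summed rows and tested rows only. They also did so without Actg1, without the earlier symbol of Myl12a and among members with a mean of 20 FPKM or more, which were chosen after seeing the data. Over the single-member values of the mammosphere comparison, 327 kept their direction and their side of the 2-fold limit and 13 lost the 2-fold call. These were Cnn3, Myl6, Myh9, Tpm1 and Tpm2 under centring and under equal upper quartiles, and Tagln, Cnn1 and Tpm2 with 5 FPKM added. No paired analysis was possible because each group was 1 library. Depth is unknown, so no counting error could be set beside low values such as those of Myl9 and Tagln.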

Other observations

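Myl9 and Tagln were under 1 FPKM in mammospheres and in both shRNA libraries. Myl9 was at 0.207 FPKM in mammospheres and 21.8 FPKM in bulk cells in the first table, and at 0.432 FPKM in the knockdown and 0.354 FPKM in the control library in the second. Tagln was at 0.447 FPKM in mammospheres and 5.12 FPKM in bulk cells, and at 0.888 FPKM in the knockdown and 0.621 FPKM in the control library. The 15 leukocyte markers summed to 1.37 FPKM in mammospheres and 432 FPKM in bulk cells. Only 2 of the 15 had a row in the second table, and these summed to 0.588 FPKM in the knockdown and 0.759 FPKM in the control library. The tables were normalized separately, so these levels are set side by side with no comparison between tables.

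In the same way, with no comparison between tables, Actg1 was at 503 FPKM in mammospheres and 1831 FPKM in bulk cells, and at 50.5 FPKM in the knockdown and 36.3 FPKM in the control library. Actb was at 1167 FPKM in mammospheres and 2003 FPKM in bulk cells, and at 2129 FPKM in the knockdown and 1705 FPKM in the control library. The part of the pseudogene stretches in these levels was not tested.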
